A study of Mus musculus with 6 samples.

Results

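The enzymes that make fatty acids from acetyl-CoA were followed gene by gene in the livers of aged male mice with and without *Sirt7*, which encodes a nuclear protein deacetylase. The 10 genes were chosen by name for their place in de novo lipogenesis, *Acly*, *Acaca*, *Acacb*, *Fasn*, *Scd1*, *Elovl5*, *Elovl6*, *Me1*, *Thrsp* and *Pnpla3*, out of 54115 annotated genes, by a rule that used no measured value, although earlier results of these data were known when the list was drawn up. RNA-seq was performed on bulk liver of 3 wild-type (WT) and 3 *Sirt7* knockout (KO) males, 24 months old and without food for 16 h before collection. The KO is constitutive and affects every tissue. The line came from another laboratory, was crossed back repeatedly to C57BL/6J from a mixed C57BL/6 and 129Sv origin, and WT and KO mice were littermates of heterozygous parents. The sources used here do not state the exons that the KO allele lacks or the hour at which the livers were taken. The deposited values were read counts per transcript, which were summed per gene. The libraries held 9994860 to 13424776 assigned reads.

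As background, the liver turns surplus carbohydrate into fat after a meal. Citrate leaves the mitochondria, is cleaved to acetyl-CoA, is carboxylated to malonyl-CoA, and is built into palmitate with NADPH as the reductant, after which palmitate is elongated and desaturated. Transcription of these genes is driven by insulin through the sterol response element binding protein encoded by *Srebf1*, by glucose through ChREBP (encoded by *Mlxipl*) and by the liver X receptor, and it falls in fasting.

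In these fasted livers, most of the lipogenic genes were more abundant on average in *Sirt7* KO than in WT mice, but the size of the difference was set largely by 2 of the 3 KO livers, and none passed the test across all genes. Of the 10 genes, 9 had enough reads to be tested (all but *Pnpla3*), 8 of them with a higher and 1, *Me1*, with a lower mean in the KO mice. Their median log2 fold change was 0.89, beside -0.01 over all 12524 genes tested. It was 0.57 without KO 2 and 0.64 with edgeR length offsets. By edgeR's quasi-likelihood test with Benjamini-Hochberg adjustment, 0 of the 9 were called at an adjusted p under 0.05 with a fold change over 1.5, and the smallest adjusted p among them was 0.175. That test called 1 gene in all, or 0.00798% of those tested. At an unadjusted p under 0.05, 5 of the 9 genes were higher in the KO mice (*Acly*, *Acacb*, *Fasn*, *Elovl6* and *Thrsp*), where 6.54% of all tested genes were, and 1 was lower (*Me1*), where 4.78% of all tested genes were. All 3 KO livers lay above all 3 WT livers for 3 genes (*Acacb*, *Fasn* and *Elovl6*), a pattern found in 8.74% of all tested genes, and below them for 0, where 8.09% of all tested genes did. DESeq2 called 4 of the genes higher (*Acly*, *Acacb*, *Fasn* and *Elovl6*), beside 1.28% of the genes it gave an adjusted p. With the average transcript length of each liver as an offset, it called 2 (*Acacb* and *Fasn*), beside 1.33%. In bulk liver, fewer cells of a type and less RNA per cell cannot be told apart.

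Promoter sequence is shown for 3 of the genes, to set *Fasn* and *Acly*, which lay at an unadjusted p under 0.05, beside *Elovl5*, which did not. The sequences are from RefSeq on GRCm38.p6, where 9 of the 10 genes had a window (10 windows, since *Me1* had 2 starts, and none for *Scd1*). Each is the 250 bases before an annotated start, written 5′ to 3′ on the strand of the gene, at chr11:120824548-120824797 (minus strand) for *Fasn*, chr11:100528001-100528250 (minus strand) for *Acly* and chr9:77917115-77917364 (plus strand) for *Elovl5*. The capitals mark CCAAT (the letters bound by NF-Y), GGGCGG (bound by Sp1) and CACGTG (the E-box), read on both strands, so that ATTGG and CCGCCC mark the first and the second on the other strand.
Fasn: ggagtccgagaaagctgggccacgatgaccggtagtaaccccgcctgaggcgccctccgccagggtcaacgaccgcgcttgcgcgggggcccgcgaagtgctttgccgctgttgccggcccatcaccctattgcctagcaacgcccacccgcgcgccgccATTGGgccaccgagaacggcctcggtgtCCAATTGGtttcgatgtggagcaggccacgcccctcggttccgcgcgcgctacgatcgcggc
Acly: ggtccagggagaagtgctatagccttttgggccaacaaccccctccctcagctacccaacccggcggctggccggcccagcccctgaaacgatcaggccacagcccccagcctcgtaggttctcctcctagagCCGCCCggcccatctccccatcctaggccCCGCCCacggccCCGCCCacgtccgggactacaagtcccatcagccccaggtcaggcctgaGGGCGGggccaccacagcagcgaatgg
Elovl5: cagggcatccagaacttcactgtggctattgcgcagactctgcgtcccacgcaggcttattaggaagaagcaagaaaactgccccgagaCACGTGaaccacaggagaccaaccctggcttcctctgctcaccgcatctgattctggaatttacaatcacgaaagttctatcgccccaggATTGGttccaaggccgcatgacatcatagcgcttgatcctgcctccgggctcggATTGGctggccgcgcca
Within these windows and the 50 bases after the start, CCAAT stood in 7 of the 10 windows of the lipogenic genes and in 37.4% of the 32817 windows of all genes. For *Fasn*, it was found as ATTGG at positions -90 to -86 from the start, as CCAAT at -62 to -58 and as ATTGG at -59 to -55, of which the last 2 overlap as 1 run of capitals. GGGCGG stood in 3 of the 10 windows (*Acly*, *Me1* and *Pnpla3*) and in 35.6% of all, and *Acly* held 4 copies before its start. CACGTG stood in 1 of the 10, that of *Elovl5* at -161 to -156, and in 7.15% of all. The core of the sterol element, TCACNCCAC, was in 0 of the 10 windows and in 1.24% of all, and TATAAA was in 1 (*Acacb*) and in 13.6% of all. These are matches of letters in a short window and were not tested as binding sites. The *Fasn* window precedes Fasn-201 and the *Acly* window precedes Acly-203 and Acly-201, while other isoforms of both genes start further downstream. Fasn-201 was assigned only 14.9 to 32.4% of the *Fasn* reads over the livers. Acly-203 was assigned 24.2 to 39.1% of the *Acly* reads in WT and 36.0 to 69.2% in KO livers. Acly-201 was assigned 20.3% in KO 3 and 0 elsewhere.

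**Figure D1:**
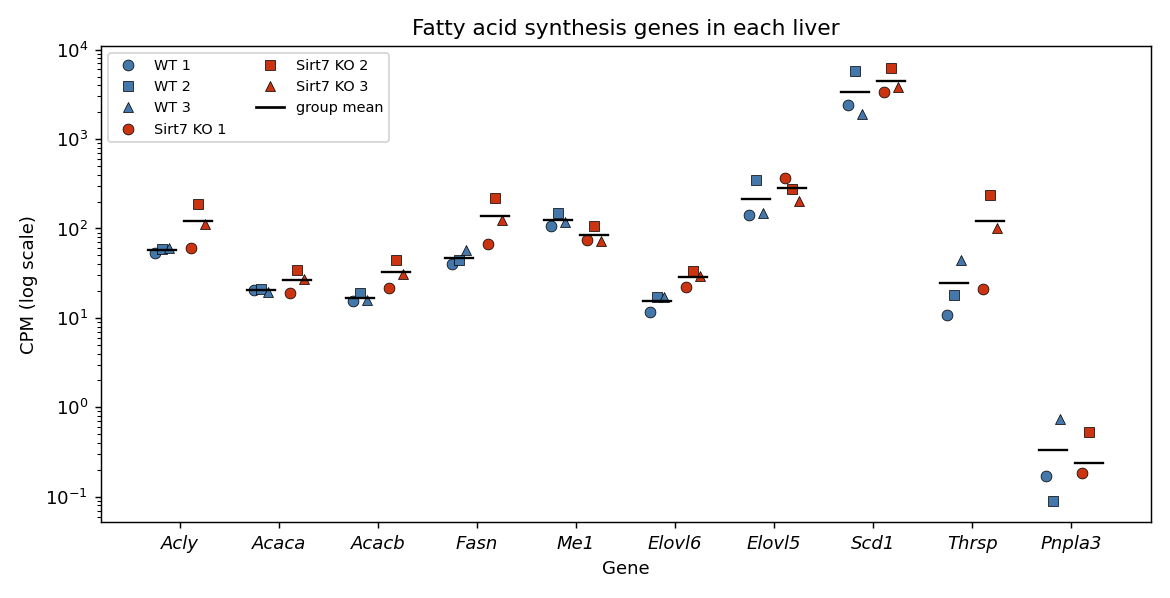
Read counts scaled to library size (CPM, log scale) of the 10 fatty acid synthesis genes in each liver, with WT in blue, *Sirt7* KO in red, a marker shape for each replicate number and a black line at the group mean. The KO livers lie above the WT livers for *Acacb*, *Fasn* and *Elovl6*. The KO 3 liver had 0 reads for *Pnpla3* and has no point there.

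*Acly* encodes ATP citrate lyase, which makes the cytosolic acetyl-CoA that the pathway starts from. Its level in CPM (reads scaled to the library total after TMM normalization) was 53.7, 58.5 and 61.0 in the WT livers 1 to 3 and 60.0, 189.1 and 111.7 in the KO livers 1 to 3. The WT livers were alike, KO 1 lay within their range, and KO 2 and KO 3 lay above it. The means were 57.7 ± 3.73 (SD, n = 3) and 120.3 ± 65.0 (SD, n = 3), a log2 fold change of 1.06 with a standard error of 0.34 and an adjusted p of 0.290 by edgeR's quasi-likelihood test. The KO mice thus varied 3.15-fold between the highest and the lowest liver, and the WT mice 1.14-fold.

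*Acss2*, which makes acetyl-CoA from acetate in the cytosol by a separate route, had the smallest p among 21 gene models that supply acetyl-CoA and NADPH. It stood at 37.6, 59.2 and 63.5 CPM in the WT livers and at 72.3, 387.6 and 207.7 CPM in the KO livers, with no overlap. Its log2 fold change was 2.06 with a standard error of 0.51 (adjusted p = 0.188 by edgeR). The order of the KO livers was that of *Acly*, with KO 2 highest and KO 1 lowest.

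The acetyl-CoA carboxylases make malonyl-CoA, *Acaca* in the cytosol for synthesis and *Acacb* at the mitochondrial surface, where malonyl-CoA restrains the entry of fatty acids for oxidation. *Acacb* was counted at 15.4, 19.1 and 15.8 CPM in WT and at 21.6, 44.1 and 31.02 CPM in KO livers. The groups did not overlap, and KO 1 was the KO liver nearest to the WT livers. The log2 fold change of *Acacb* was 0.94 with a standard error of 0.25, at an adjusted p of 0.212 by edgeR. *Acaca* was counted at 20.5, 20.9 and 19.5 CPM in WT and at 19.0, 34.3 and 27.3 CPM in KO livers. For *Acaca*, KO 1 was the lowest of the 6 livers and the other two KO livers were the highest. Its log2 fold change of 0.41 (standard error 0.21, adjusted p = 0.524 by edgeR) did not pass the test, and the groups overlapped. It was 0.19 without KO 2 and 0.60 without KO 1.

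The count of *Acacb* joined transcripts of different kinds, and the genotype difference was not the same in them. Acacb-204, a retained-intron transcript with no coding sequence, took 40.6, 32.0 and 64.4% of the *Acacb* reads in the WT livers and 74.5, 64.0 and 36.8% in the KO livers. The reads assigned to its protein-coding isoforms came to 8.94, 13.0 and 5.64 CPM in WT and 5.10, 15.5 and 19.6 CPM in KO livers. In the coding isoforms the groups thus overlapped, with KO 1 the lowest of all 6 livers. Acacb-204 itself stood at 6.26, 6.13 and 10.2 CPM in WT and at 16.1, 28.2 and 11.4 CPM in KO livers, without overlap. How Salmon divides reads between isoforms that share exons was not tested here, and only 182 to 416 reads per liver fell on the gene.

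*Fasn*, the fatty acid synthase that builds palmitate from malonyl-CoA and NADPH, had the smallest p of the 9 genes. It was counted at 39.6, 44.6 and 56.7 CPM in the WT livers and at 67.8, 220.9 and 123.9 CPM in the KO livers. Each KO liver exceeded each WT liver, although KO 1 exceeded the highest WT liver by far less than KO 2 did. The means were 47.0 ± 8.79 (SD, n = 3) and 137.5 ± 77.5 (SD, n = 3), a 2.92-fold ratio and a log2 fold change of 1.55 with a standard error of 0.37 (unadjusted p = 0.0024 and adjusted p = 0.175 by edgeR). The 3 mice of each genotype allow no exact permutation p below 0.1 for a single gene, and *Fasn*, *Acacb* and *Elovl6* all gave that value.

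*Fasn* also lies close to the targeted gene, 181 kb from *Sirt7* on chromosome 11 of GRCm38. Between them lie 13 protein-coding genes, of which 9 were tested. These had log2 fold changes of -0.40 to 0.19 with a median of 0.01, and 0 of the 9 had an unadjusted p under 0.05 by edgeR in either direction. *Acly* and *Acaca*, on the same chromosome, lie 20.1 Mb and 36.2 Mb from *Sirt7*. For *Fasn*, loss of *Sirt7* and a difference carried with the targeted locus cannot be told apart in this design. How far a carried segment reaches was not tested, so the same limit applies to *Acly* and *Acaca*.

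*Me1*, the malic enzyme that yields NADPH for synthesis, was the only one of the 9 tested genes with a lower mean in the KO mice. Its counts were 105.4, 147.7 and 118.1 CPM in WT and 73.6, 107.6 and 73.1 CPM in KO livers. KO 1 and KO 3 lay below all WT livers, and KO 2, which was the highest liver for most of the other genes, lay just above the lowest WT liver. The log2 fold change was -0.55 with a standard error of 0.20, at an unadjusted p of 0.0238 and an adjusted p of 0.353 by edgeR. Of the words of 31 bases in its transcripts, 36.9% also occur in other genes, mostly a pseudogene, as do 33.5% of those of *Acaca*, so both counts depend on how reads were shared out.

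Palmitate is lengthened by *Elovl6* and desaturated by *Scd1*, while *Elovl5* elongates polyunsaturated fatty acids, and the 3 genes differed in their pattern. *Elovl6* stood at 11.7, 17.2 and 17.2 CPM in WT and at 22.0, 33.7 and 29.7 CPM in KO livers. The groups did not overlap, and the 3 KO livers were closer to each other than for *Fasn* or *Acly*. Its log2 fold change was 0.89 with a standard error of 0.22, at an adjusted p of 0.188 by edgeR. In TPM, which takes the length of the assigned isoforms into account, the lowest KO liver (4.67) fell below the highest WT liver (5.20), and with length offsets the log2 fold change was 0.64 by edgeR. An annotated antisense transcript overlaps the start of *Elovl6*, and without a stated strand its reads cannot be told apart from those of the gene.

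*Scd1*, the stearoyl-CoA desaturase that makes oleate and palmitoleate, was by far the most abundant of the genes. Its counts were 2431, 5779 and 1918 CPM in the WT livers and 3333, 6292 and 3803 CPM in the KO livers. WT 2 lay between KO 3 and KO 2, the other two WT livers lay below all KO livers, and the WT mice spanned a 3.01-fold range. The log2 fold change was 0.41 with a standard error of 0.41 (adjusted p = 0.765 by edgeR), so that the difference was no larger than its error. Without WT 2 it was 1.04, and without KO 2 it was 0.08.

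*Elovl5* had 142.8, 350.1 and 148.3 CPM in the WT livers and 362.5, 274.6 and 203.4 CPM in the KO livers. As for *Scd1*, WT 2 stood apart from the other WT livers, and here KO 1 was the highest of the 6. The log2 fold change was 0.39 with a standard error of 0.36 (adjusted p = 0.732 by edgeR), and it was 0.95 without WT 2 and 0.16 without KO 1.

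*Thrsp* encodes Spot 14, a small protein that responds to thyroid hormone and carbohydrate and that promotes lipogenesis. It varied more than any of the other tested genes, with 10.8, 18.1 and 44.3 CPM in the WT livers and 21.2, 239.4 and 100.1 CPM in the KO livers. KO 1 lay inside the WT range, between WT 2 and WT 3, whereas KO 2 and KO 3 lay above every WT liver. Its log2 fold change of 2.29 had a standard error of 0.78 and an adjusted p of 0.316 by edgeR. The value was 1.31 without KO 2 and 3.06 without WT 3, in the fits that left out 1 liver at a time.

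*Pnpla3* encodes a lipid droplet protein with lipase activity, and its expression normally follows that of the lipogenic genes. It had 2, 1 and 10 reads in the WT livers and 2, 5 and 0 reads in the KO livers. The gene did not pass the filter on low counts, and no genotype difference was detectable at this depth. The other 9 genes all had more reads, the lowest count being 127 for *Thrsp* in WT 1.

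**Figure D2:**
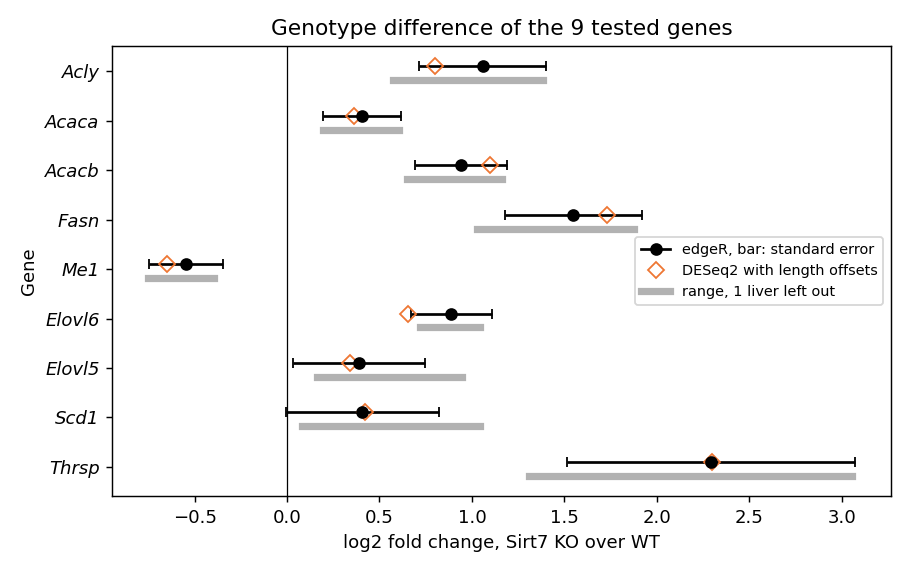
Log2 fold change of *Sirt7* KO over WT for the 9 tested genes by edgeR (black, bar of 1 standard error to each side), by DESeq2 with length offsets (orange) and as the range when each liver is left out in turn (grey). Of the 9 genes, 8 lie to the right of 0 and *Me1* to the left, and the grey ranges do not cross 0.

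Levels were compared between genes on the length-adjusted TPM scale, as means of the 6 livers. *Scd1* led with 703 TPM, followed by *Elovl5* (113 TPM), *Me1* (61.0 TPM), *Thrsp* (58.1 TPM), *Acly* (20.0 TPM), *Fasn* (18.9 TPM), *Elovl6* (5.90 TPM), *Acacb* (3.35 TPM), *Acaca* (2.30 TPM) and *Pnpla3* (0.224 TPM). Neighbours in this order overlapped in their values over the livers, except *Scd1* with *Elovl5* and *Acaca* with *Pnpla3*. The order of the group means turned for *Me1* and *Thrsp*, at 75.5 and 19.7 TPM in WT and at 46.6 and 96.5 TPM in KO mice. The KO mean of *Thrsp* was set by KO 2 and KO 3. In CPM, *Thrsp* stood at 9.81 and 4.10 times its WT mean in these livers, but at 0.867 times in KO 1. The means of *Acly* and *Fasn* also changed order, at 14.9 and 8.98 TPM in WT and at 25.2 and 28.9 TPM in KO mice. The *Fasn* value includes the short retained-intron transcripts Fasn-202 (762 bases) and Fasn-203 (976 bases), whose reads weigh more in TPM than those of long transcripts. The order of *Acly* and *Fasn* in TPM of coding isoforms alone was not tested. The deposited effective lengths were the same in all livers.

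Liver by liver, KO 2 was most often high and WT 1 most often low, while the order of the other livers differed between genes. KO 2 was the highest of the 6 livers for 7 of the 9 tested genes, and WT 1 the lowest for 6. KO 2 lay above all WT livers for 7 genes and KO 3 for 6. KO 1 lay above all WT livers for only 4 (*Acacb*, *Fasn*, *Elovl6* and *Elovl5*), within the WT range for 3, and below it for 2 (*Acaca* and *Me1*). These ranks of single livers were not counted over all genes, so whether they are particular to the lipogenic genes was not tested. For the 5 genes with a higher KO level at an unadjusted p under 0.05, KO 1 stood at 0.867 to 1.44 times the WT mean, KO 2 at 2.19 to 9.81 times and KO 3 at 1.85 to 4.10 times. The same is seen in the mean of the 9 genes after each was centred on its own mean of log2(CPM + 0.5). That mean was -0.67, -0.13 and -0.33 in the WT livers and -0.18, 0.96 and 0.35 in the KO livers, so that KO 1 fell between WT 2 and WT 3.

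**Figure D3:**
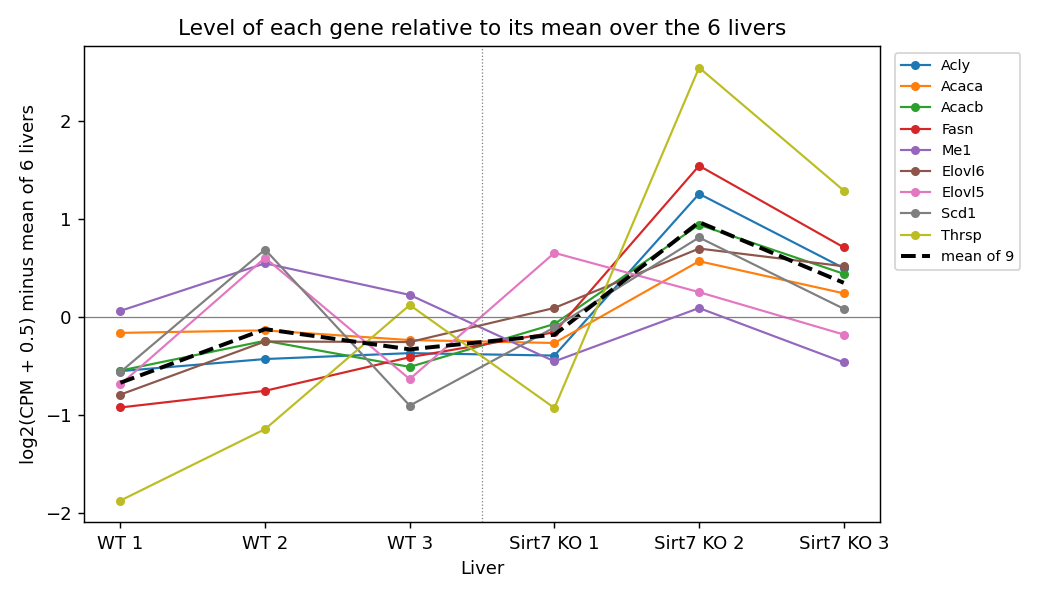
Level of each of the 9 tested genes in each liver, as log2(CPM + 0.5) minus the mean of that gene over the 6 livers, with the mean of the 9 genes as a dashed line. The lines only join the points of a gene. KO 2 stands highest for most genes (dashed line at 0.96), and KO 1 (-0.18) lies among the WT livers.

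The fit was repeated with each liver left out in turn, and KO 1 had the largest effect on the calls. Without KO 1, edgeR called 5 of the genes (*Acly*, *Acacb*, *Fasn*, *Elovl6* and *Thrsp*) and 252 of all 12921 genes tested in that fit. With any other liver left out instead, it called 0 of the 9 genes and 0 to 2 genes in all. Without KO 2, 4 of the 9 had an unadjusted p under 0.05 by edgeR. The share at that threshold was not counted over the 13102 genes tested in that fit. The log2 fold change of *Fasn* was 1.88 without KO 1 and 1.03 without KO 2, and that of *Acly* was 1.38 and 0.57. These fits describe how far the calls rest on 1 mouse.

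The genes outside the list whose level followed the mean of the 10 lipogenic genes most closely were *Mipep*, *Gls2*, *Tatdn3*, *Tst* and *Izumo4*. Over the 6 livers and among 8744 candidate genes, their root mean square difference from that mean was 0.11 to 0.15 on the centred log2 scale. *Mipep*, a peptidase of the mitochondrial matrix, ran at 18.04, 27.0 and 20.6 CPM in WT and at 23.4, 50.8 and 35.5 CPM in KO livers, and *Gls2* is the liver glutaminase. They were picked for this likeness, which is given as a description.

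The regulators of lipogenesis were split. Of 21 genes, 20 were tested (*Nfya* was not), and 5 were higher and 2 lower in the KO mice at an unadjusted p under 0.05, with a median log2 fold change of 0.13 and 0 calls by edgeR. Over all tested genes, 6.54% were higher and 4.78% lower at that threshold, which is the background for the related lists below. *Srebf1* was counted at 35.4, 57.0 and 92.9 CPM in WT and at 67.8, 133.8 and 182.9 CPM in KO livers. KO 1 lay within the WT range, and the highest liver was KO 3, not KO 2 as for most lipogenic enzymes. Its log2 fold change was 1.05 with a standard error of 0.40 (adjusted p = 0.364 by edgeR). *Insig1*, a target of the sterol response element binding proteins that holds them in the endoplasmic reticulum, stood at 37.7, 47.4 and 62.3 CPM in WT and at 76.0, 147.1 and 105.2 CPM in KO livers, with no overlap (log2 fold change 1.15, adjusted p = 0.166 by edgeR). DESeq2 called *Insig1* higher, at an adjusted p of 0.0015 without and 0.014 with length offsets. *Scap*, their escort protein, also did not overlap (log2 fold change 0.56, adjusted p = 0.216 by edgeR). *Srebf2*, which favours sterol genes, and *Insig2* had log2 fold changes of 0.52 and 0.58 at unadjusted p-values under 0.05.

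*Mlxipl* and *Nr1h3*, the genes of ChREBP and of the liver X receptor α, stood at log2 fold changes of 0.13 and 0.08 (adjusted p = 0.857 and 0.881 by edgeR). For *Nr1h3* the sign turned under scaling by total counts, to -0.031, and for *Mlxipl* it turned without KO 3, to -0.042. The lower values were those of *Rxra*, the partner of the liver X receptor, at -0.40 (WT 127.3 to 129.3 CPM, KO 93.5 to 100.2 CPM, no overlap), and of *Usf2*, a factor that binds E-boxes, at -0.76. *Ppargc1b*, a coactivator of lipogenic transcription, had -0.60 at an adjusted p of 0.494 by edgeR.

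The target genes of these factors outside fatty acid synthesis did not move as one group. Among 8 targets of the liver X receptor the median log2 fold change was -0.13, with 0 higher and 1 lower (*Smpdl3a*, -0.45) at an unadjusted p under 0.05, while the sterol exporters *Abca1* and *Abcg1* had 0.32 and 0.38 at adjusted p-values of 0.649 and 0.757 by edgeR. Among 6 targets of ChREBP the median was -0.30, with 0 higher and 1 lower, *Txnip*, an inhibitor of thioredoxin, at -0.94. The 20 sterol synthesis genes, most of them targets of the sterol response element binding proteins, had a median of 1.62. At an unadjusted p under 0.05, 17 were higher and 0 lower, beside 6.54% and 4.78% of all tested genes. Of the 20, edgeR called 0. DESeq2 called 6 higher without and 8 with length offsets, beside 1.28% and 1.33% of the genes it gave an adjusted p. Every KO liver lay above every WT liver for 13 of the 20, beside 8.74% of all tested genes. *Mvd*, *Idi1* and *Dhcr7* had log2 fold changes of 2.06, 1.78 and 2.21 (adjusted p = 0.145, 0.152 and 0.166 by edgeR). DESeq2 called *Mvd* and *Idi1* higher with and without length offsets. It did not call *Dhcr7*, at an adjusted p of 0.0671 without and 0.21 with length offsets. *Dhcr7*, the last enzyme of cholesterol synthesis, ran at 8.47, 17.1 and 11.7 CPM in WT and at 20.4, 100.9 and 50.8 CPM in KO livers, and so had KO 2 highest and KO 1 lowest among the KO livers, as *Fasn* and *Acly* did.

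Genes that are induced by fasting were lower on average in the KO livers. Of 12, all tested, 10 had a lower KO mean, and the median log2 fold change was -0.40. At an unadjusted p under 0.05, 4 were lower and 0 higher, beside 4.78% and 6.54% of all tested genes. *Cyp4a14*, a fatty acid hydroxylase under the receptor PPARα, stood at 2751, 3182 and 2049 CPM in WT and at 884.3, 268.1 and 82.8 CPM in KO livers. *Irs2*, an adaptor of the insulin receptor, ran at 33.4, 27.5 and 16.2 CPM in WT and at 15.2, 8.79 and 7.03 CPM in KO livers. The groups did not overlap for either gene, and KO 1 was again the KO liver nearest to WT. The log2 fold changes were -2.69 for *Cyp4a14*, -1.81 for *Cyp4a10* and -1.31 for *Irs2*, each with an adjusted p of 0.202 by edgeR. DESeq2 called *Irs2* lower, at an adjusted p of 0.0096 without and 0.0351 with length offsets. It called neither *Cyp4a14* nor *Cyp4a10*.

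**Figure D4:**
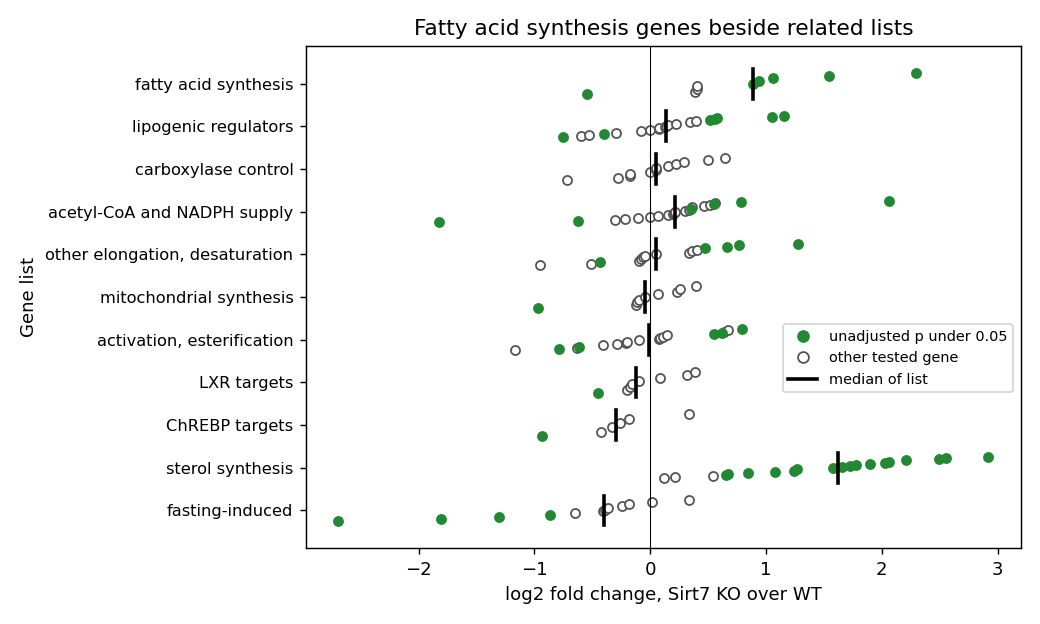
Log2 fold change of *Sirt7* KO over WT for each tested gene of the fatty acid synthesis list and of 10 related lists, with filled points for an unadjusted p under 0.05 by edgeR and a bar at the median of each list. The medians are 0.89 for fatty acid synthesis, 1.62 for sterol synthesis and -0.40 for fasting-induced genes, and those of the other lists lie between -0.30 and 0.22.

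The steps next to fatty acid synthesis were mixed. Of the 21 gene models for acetyl-CoA and NADPH supply, in which *Nnt* appears as 2 models, 4 were higher and 2 lower at an unadjusted p under 0.05 (median log2 fold change 0.22). *Pgd* of the pentose phosphate pathway had 0.78 and *Mpc2*, a subunit of the mitochondrial pyruvate carrier, -0.62, at adjusted p-values of 0.336 and 0.260 by edgeR. Among 15 tested genes for other elongases and desaturases, 4 were higher and 1 lower (median 0.05). *Elovl3* had 45.0, 176.3 and 134.0 CPM in WT and 235.4, 322.1 and 301.2 CPM in KO livers, a log2 fold change of 1.27 without overlap (adjusted p = 0.285 by edgeR). *Cyb5r3*, which passes electrons to the desaturases, and the desaturase *Fads1* had 0.77 and 0.66. DESeq2 called *Elovl3* higher only with length offsets (adjusted p = 0.0378) and *Cyb5r3* only without them (adjusted p = 0.0424).

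Genes that control acetyl-CoA carboxylase and its relatives showed 0 of 12 at an unadjusted p under 0.05 in either direction (median 0.05), and *Mid1ip1*, a relative of *Thrsp* that activates the carboxylases, had 0.64 at an adjusted p of 0.603 by edgeR, and 0.075 without KO 3. *Hlcs*, which attaches biotin to them, had 0.50, and *Prkaa2*, a catalytic subunit of AMPK, had -0.28. With length offsets the sign of *Hlcs* turned, to -0.046. The separate mitochondrial pathway of fatty acid synthesis had a median of -0.05 over 9 genes, with 1 lower, *Lipt2* at -0.97, and with *Mecr* at 0.40 and *Mcat* at 0.26. Among 18 genes of fatty acid activation and esterification the median was -0.01, with 3 higher and 2 lower at an unadjusted p under 0.05. *Lpin2*, a phosphatidate phosphatase, stood at 232.0, 269.5 and 310.2 CPM in WT and at 142.1, 165.0 and 162.3 CPM in KO livers, with a log2 fold change of -0.79 (adjusted p = 0.145 by edgeR; DESeq2 called it lower). The acyltransferases *Agpat3* and *Agpat2* had -0.62 and 0.55.

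The labels were checked on the targeted gene and on markers of liver cells. *Sirt7* was counted at 55.2, 45.5 and 47.3 CPM in WT and at 28.6, 41.8 and 40.8 CPM in KO livers, with no overlap and a log2 fold change of -0.41 (adjusted p = 0.423 by edgeR). In TPM, and with length offsets (0.80), it was higher in the KO livers, so reads of *Sirt7* do not by themselves establish the genotypes. The authors had other evidence for the genotypes. They genotyped the mice by PCR on tail DNA. They also measured *Sirt7* in liver by qRT-PCR, in a figure whose legend lists a mark for values not detected. The 8 hepatocyte markers summed to 76113 to 84060 CPM in WT and to 78339 to 93773 CPM in KO livers, and 0 of them had an unadjusted p under 0.05 by edgeR. Lipogenic enzymes are also abundant in adipocytes. Of 8 adipocyte markers, 3 passed the filter. *Adipoq* and *Lep* had at most 1 read and *Plin1* at most 4 in any liver, *Retn* had 0 reads in every WT and 2 to 4 in every KO liver, and the 8 summed to 20.9 to 25.8 CPM in WT and 26.5 to 30.3 CPM in KO livers. Of the 3, *Adrb3* had an unadjusted p under 0.05 by edgeR, at 0.677, 1.72 and 1.33 CPM in WT and 2.29, 8.79 and 5.97 CPM in KO livers. The other 2 tested markers were level between the genotypes, with log2 fold changes of -0.015 and -0.031. The marker lists of cholangiocytes (4 of 6 tested), Kupffer cells (6 of 6), endothelial cells (6 of 6), stellate cells (6 of 6) and lymphocytes (4 of 6) held 0 genes with an unadjusted p under 0.05. The part of any of these cells in the values was not tested.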

How the data were processed

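Liver RNA of 3 WT and 3 *Sirt7* KO mice was reverse transcribed and amplified from total RNA (SMART-seq HT), and libraries were made with Nextera XT. The authors trimmed reads with Trim Galore 0.6.5 and quantified them with Salmon 1.2.1 on GRCm38 transcripts (annotation release not given in the sources used here). They deposited, per transcript, an estimated count, which is not normalized, and the TPM computed by the authors' Salmon run, which is scaled to length and library. Amplification without molecular identifiers means that counting error understates the error. Strand was not stated, so antisense reads cannot be told apart.

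Of 140992 transcripts, 139172 were found in GENCODE M21 in the same version, 619 in a different one, and 1201 had no gene and were left out, with 0.303 to 0.492% of reads. Counts were summed per gene and rounded. edgeR 4.0.16 (R 4.3.3) was used with TMM, filterByExpr (minimum count 10) and the quasi-likelihood test, two-sided, with Benjamini-Hochberg adjustment over 12524 genes. A call needed an adjusted p under 0.05 and a fold change over 1.5. The edgeR test gives no standard error. Those printed were worked back from its F statistic, as the absolute log2 fold change over the square root of F. CPM is after TMM. Single genes were also compared by exact two-sided permutation. DESeq2 1.42.0 was an alternative, with and without length offsets, as were other normalizations, filters, thresholds, a replicate block, TPM and leaving out each liver. Both tools were tested on simulated counts with known changes, whose values are not given here. The replicate numbers come from the labels, which call the samples biological replicates. The biological coefficient of variation was 26.4%.

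The text names the 10 genes, *Sirt7*, 7 fixed regulators, the 3 genes of each related list (and of the other regulators) with the smallest p, and the 5 genes most like the 10. *Nfya*, *Nnt* and the adipocyte markers were named after their values were seen. The genes and lists were chosen with earlier results of these data known.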

Additional observations from a re-analysis of the deposited data

How the results depend on the processing

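The 9 tested lipogenic genes kept the sign of their log2 fold change under every alternative run. The number called did not hold. It was 0 by edgeR, 5 with no filter on low counts, 4 by DESeq2 without and 2 with length offsets, 5 at an unadjusted p under 0.05 with a fold change over 1.5, and 0 to 5 when each liver was left out (5 without KO 1). Over all genes, edgeR called 1, and the count was 2 with total counts, 2 with edgeR length offsets, 633 with no filter, 256 by DESeq2 without and 242 with length offsets, 925 at the unadjusted threshold, and 0 to 252 when each liver was left out (252 without KO 1). The cause of these differences was not tested. Total counts moved the median of all genes to -0.11 on the log2 scale. Livers with the same replicate number did not deviate together (r = 0.07, 0.08 and -0.04 over genes), and a replicate block gave 41 calls over all genes and 0 among the lipogenic genes. The log2 fold change turned in sign for *Sirt7* with length offsets (0.80 by edgeR, 0.81 by DESeq2), for *Hlcs* likewise (-0.046 by edgeR, -0.041 by DESeq2), for *Nr1h3* with total counts (-0.031), and for *Mlxipl* when livers were left out (-0.042 to 0.30). With 3 mice a genotype, leaving out 1 gives a group of 2. Depth limited *Pnpla3*, with at most 10 reads per liver.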

Other observations

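The mitochondrial transhydrogenase *Nnt*, which makes NADPH, is annotated as 2 gene models, and this was noticed after the values were seen. The model ENSMUSG00000025453 had 143, 70 and 525 reads in the WT livers and 95, 14 and 61 reads in the KO livers. The model ENSMUSG00000116207 had 347, 440 and 0 reads in the WT livers and 287, 297 and 387 reads in the KO livers. WT 3 therefore stood apart from the other 5 livers, with no read on the second model. C57BL/6J mice are known to carry a deletion in *Nnt*, and what each mouse carries at this gene was not tested.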
